A study of Mus musculus with 36 samples.

Results

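Brown adipose tissue (BAT) was compared with white adipose tissue (WAT) taken from the same water-treated mice. The comparison used the 7 BAT and the 7 WAT arrays of the water group, 14 of the 36 arrays of the series, and every mouse gave 1 array of each tissue. The animals were male ddY mice, an outbred stock, that arrived at an age of 5 weeks, were acclimatized for 1 week and then received water by mouth once a day, 5 times in all, under free feeding. They were killed 4 h after the last dose, and food was taken away on the same morning, before that dose was given. No genotype, transgene or amino acid dose differed between the 2 groups of arrays. The labels name the tissues only as brown and white adipose tissue, and the depot from which the WAT was cut is not given in the sources used here. RNA amplified from total RNA was hybridized to the Affymetrix GeneChip mouse whole-genome array, on which each transcript is read by a probe set of short oligonucleotides. Of its probe sets, 45037 were compared after 64 control probe sets had been left out, and they name 18193 gene symbols.

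Brown fat burns fatty acids and glucose to make heat. Its cells are packed with mitochondria, and uncoupling protein 1 (Ucp1) in the inner membrane lets protons return to the matrix without making ATP. Noradrenaline from sympathetic nerves sets the process going through cAMP. White fat cells store triacylglycerol in a single large droplet and release leptin (Lep) and other hormones. Both cell types share the machinery of the fat cell, such as the receptor Pparg and the fatty acid binding protein Fabp4.

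The sequences just upstream of the gene start are shown for 8 genes. Ucp1 and Lep are the markers of brown and white fat. The other 6 are genes of fatty acid and mitochondrial metabolism that were higher in BAT, chosen because each holds one of 4 motifs, shown in capitals. AAGGTCA is the half-site read by estrogen-related receptors, TGACGTCA is the cAMP response element, CGCATGCG is the core of the nuclear respiratory factor 1 element, and TTGCGCAA is an element of the C/EBP family. Both strands were searched, so the first may appear as TGACCTT, whereas the others read the same on either strand, and no match overlaps another. All are the 250 bases before the RefSeq gene start in build GRCm38.p6, written 5′ to 3′ along the gene. Ucp1 (chr8:83290098-83290347 on the plus strand) holds none of the motifs in this window, and Lep (chr6:29059971-29060220 on the plus strand) holds the C/EBP element 55 bases before the start. Slc27a2 (chr2:126552774-126553023 on the plus strand) holds the half-site 220 bases before the start. Acadm (chr3:153944644-153944893 on the minus strand) holds the half-site 249 bases before and the respiratory factor core 159 bases before. Cycs (chr6:50566570-50566819 on the minus strand) holds the cAMP element 169 bases before the start and the respiratory factor core 61 bases before. Uqcrfs1 (chr13:30545317-30545566 on the minus strand) holds the cAMP element 29 bases before. Etfdh (chr3:79628768-79629017 on the minus strand) and Ppara (chr15:85735526-85735775 on the plus strand) hold the respiratory factor core 127 and 30 bases before.
Ucp1: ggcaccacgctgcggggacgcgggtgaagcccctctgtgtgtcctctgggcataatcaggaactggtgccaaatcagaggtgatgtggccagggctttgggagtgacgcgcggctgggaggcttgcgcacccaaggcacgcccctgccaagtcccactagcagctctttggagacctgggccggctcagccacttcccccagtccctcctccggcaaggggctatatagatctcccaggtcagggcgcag
Lep: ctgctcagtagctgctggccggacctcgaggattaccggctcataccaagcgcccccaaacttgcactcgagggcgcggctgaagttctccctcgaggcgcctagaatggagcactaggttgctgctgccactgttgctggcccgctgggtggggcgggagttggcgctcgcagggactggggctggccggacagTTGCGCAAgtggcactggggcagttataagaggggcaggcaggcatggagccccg
Slc27a2: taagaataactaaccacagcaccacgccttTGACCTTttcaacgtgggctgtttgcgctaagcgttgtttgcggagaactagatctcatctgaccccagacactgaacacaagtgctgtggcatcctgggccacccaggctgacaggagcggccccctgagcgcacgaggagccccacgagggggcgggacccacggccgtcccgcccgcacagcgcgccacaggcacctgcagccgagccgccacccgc
Acadm: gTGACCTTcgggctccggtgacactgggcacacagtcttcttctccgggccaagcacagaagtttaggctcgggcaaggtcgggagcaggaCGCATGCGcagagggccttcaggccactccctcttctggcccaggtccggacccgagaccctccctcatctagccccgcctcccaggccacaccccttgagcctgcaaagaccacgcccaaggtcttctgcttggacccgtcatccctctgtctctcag
Cycs: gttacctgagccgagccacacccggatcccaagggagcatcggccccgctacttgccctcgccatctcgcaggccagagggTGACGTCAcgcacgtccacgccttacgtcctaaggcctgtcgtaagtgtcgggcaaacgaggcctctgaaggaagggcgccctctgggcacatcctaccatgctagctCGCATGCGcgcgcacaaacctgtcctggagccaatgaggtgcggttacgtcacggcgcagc
Uqcrfs1: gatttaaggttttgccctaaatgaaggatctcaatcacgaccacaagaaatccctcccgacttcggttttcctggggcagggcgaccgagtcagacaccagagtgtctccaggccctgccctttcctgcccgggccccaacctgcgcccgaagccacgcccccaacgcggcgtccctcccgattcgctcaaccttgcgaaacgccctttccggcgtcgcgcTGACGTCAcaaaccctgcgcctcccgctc
Etfdh: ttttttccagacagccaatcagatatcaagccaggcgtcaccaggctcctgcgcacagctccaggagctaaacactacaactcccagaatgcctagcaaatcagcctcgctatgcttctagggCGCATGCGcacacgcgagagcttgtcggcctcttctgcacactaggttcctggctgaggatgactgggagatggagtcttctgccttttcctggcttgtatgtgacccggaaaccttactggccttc
Ppara: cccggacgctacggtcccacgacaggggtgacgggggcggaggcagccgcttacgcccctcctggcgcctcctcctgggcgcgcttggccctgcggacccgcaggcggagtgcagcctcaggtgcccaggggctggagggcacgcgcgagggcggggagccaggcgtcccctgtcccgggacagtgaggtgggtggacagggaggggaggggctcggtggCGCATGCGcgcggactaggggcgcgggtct

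These motifs were uncommon in both directions. AAGGTCA lay in the window of 14 of the 373 genes that were higher in BAT and have a listed promoter (3.75%), of 26 of the 999 higher in WAT (2.6%) and of 4.7% of all 27025 genes in the promoter table. TGACGTCA was found in 3.22% of the genes higher in BAT, 1.8% of those higher in WAT and 1.77% of all. CGCATGCG was found in 20 genes higher in BAT (5.36%), 17 genes higher in WAT (1.7%) and 1.75% of all. With a further G before and C after this core, which was the form searched first, the shares were 2.95%, 1.2% and 0.877%. TTGCGCAA was found in none of the genes higher in BAT, 4 of those higher in WAT (0.4%) and 0.185% of all. Among the 14452 genes that are on the array and have a promoter, the 4 shares were 4.17%, 2.5%, 2.73% and 0.235%. A match in this window is a description of the letters and was not tested.

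The values are distribution free weighted (DFW) scores, on a scale close to log2, and the arrays of 1 tissue had nearly equal scores. The SD over the 7 mice had a median of 6.89e-06 score units in BAT and 1.26e-05 in WAT. The array medians were 6.78 in BAT and 6.91 to 6.92 in WAT, so the tissues did not share a common centre, and levels set across them come from scores that appear to have been normalized separately. A paired limma fit with the mouse as a block passed 99.7% of all probe sets at an adjusted p under 0.05, and the groups did not overlap for 99.7% of them. The test therefore separates almost any pair of values, and a gene was called only when its mean difference, BAT minus WAT, was also at least 1 score unit. What made this spread so small was not tested, so the SD and SE printed here are not taken as the spread between animals, and the differences are not fold changes. Another measured error is the gap between different probe sets of a gene. Over 9010 genes with at least 2 probe sets, the differences given by the 2 brightest probe sets lay a median of 0.28 units apart, and 95 percent of the gaps were below 1.03. Of 1138 genes called by their brightest probe set, the second had the same sign in 1035 (90.9%) and also passed the size in 404 (35.5%).

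By this rule 3004 probe sets (6.67% of those tested) were called, 798 higher in BAT (1.77%) and 2206 higher in WAT (4.9%). The split depended on how the arrays were scaled, with 26.6% of the calls higher in BAT as deposited, 47.2% after joint quantile normalization and 37.5% after centring each array on its median. The median difference over all probe sets moved with it, from -0.0935 to 0.0103 and 0.0412. With each gene represented by its brightest probe set, 465 genes were higher in BAT (2.56% of the genes) and 1282 were higher in WAT (7.05%), and the median gene differed by -0.12. After joint quantile normalization these shares were 3.65% and 4.31%, and after centring 3.14% and 5.36%, with a median gene at 0.01 in both. The lists below are read against these shares. All but 1 of the 3004 called probe sets were higher in the same tissue in all 7 mice. An exact sign permutation test then gave 0.0156, the smallest two-sided p that 7 pairs allow. The groups did not overlap for 99.7% of all probe sets, so nearly any probe set gives this p, called or not. In bulk tissue, fewer cells of a type and less RNA per cell cannot be told apart.

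The markers fitted the labels. Ucp1 had a score of 14.17 in each of the 7 BAT arrays and of 6.44 in each of the 7 WAT arrays, a difference of 7.73 (SE 1.64e-05, n = 7 mice), which was the largest of all genes in favour of BAT. Lep was read the other way, with 7.33 to 7.35 in BAT and 11.33 in every WAT array, a difference of -3.99 (SE 0.00126, n = 7). Ucp3, the related carrier better known from muscle, was at 9.85 in BAT and 7.83 in WAT in all mice, a difference of 2.02. The adjusted p-values from limma were 2.94e-33 for Ucp1 and 2.18e-21 for Lep, and they carry no more information than those of most genes on the array.

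**Figure D1:**
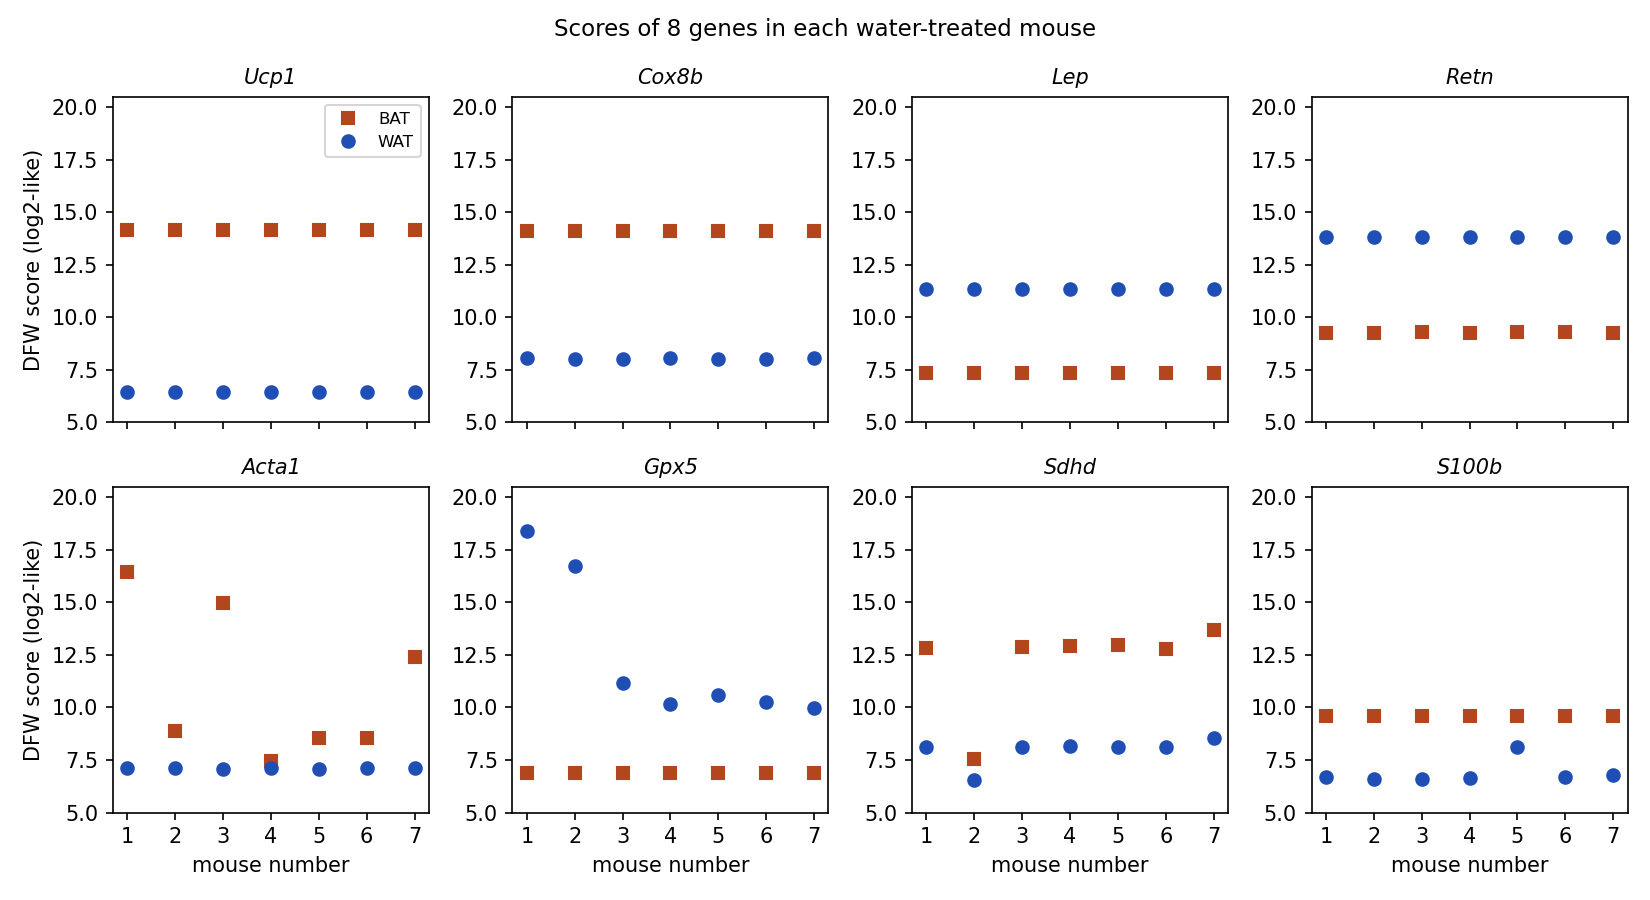
Scores (DFW, log2-like, vertical axis) of 8 genes in each of the 7 water-treated mice (horizontal axis), with squares for BAT and circles for WAT, 1 point per array. Ucp1 and Cox8b are higher in BAT and Lep and Retn higher in WAT by the same amount in all mice, whereas Acta1 in BAT runs from 7.47 to 16.44, Gpx5 in WAT from 9.98 to 18.38, and Sdhd is low in both tissues of mouse 2.

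Genes of brown fat identity and heat production were higher in BAT as a group. Of 28 measured members, 22 were higher in BAT and none was higher in WAT, with a median difference of 2.48. The list was drawn up from genes known for brown fat, so its direction is a check of the tissues. Cidea, a lipid droplet protein of brown fat, was at 14.04 in each BAT array and 6.77 to 6.78 in WAT, a difference of 7.27. The mitochondrial subunits Cox8b and Cox7a1 differed by 6.06 and 5.88, with BAT at 14.09 and 13.17 and WAT at 8.03 to 8.05 and 7.29 to 7.30. The proton channel Otop1 differed by 4.72, the long-chain acyl-CoA synthetase Slc27a2 by 4.55, the coenzyme A producing kinase Pank1 by 4.40 and the acyl-CoA thioesterase Acot11 by 4.17. For these 4 genes the lowest BAT array lay above the highest WAT array, but the groups did not overlap for 99.7% of all probe sets.

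Regulators of the programme were higher in BAT as well. Ppara, a receptor for fatty acids, was at 11.13 in BAT and 7.23 in WAT in every mouse, a difference of 3.90. The coactivator Ppargc1b, which drives mitochondrial genes, differed by 3.05, its relative Ppargc1a by 1.51 and the nuclear receptor Esrrg by 2.01. The brown fat determinants Zic1 and Prdm16 differed by 1.79 and 1.43. The remaining 6 members did not reach 1 unit, although the mean was above 0 for each. They were Esrra (0.95), Ebf2 (0.81), Lhx8 (0.77), Bmp8b (0.25), Dio2 (0.20) and Fgf21 (0.08). Dio2, the deiodinase that activates thyroid hormone, is read by 3 probe sets, whose differences ran from 0.20 for the brightest to 1.08. After joint quantile normalization 24 members were called, again all higher in BAT.

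**Figure D2:**
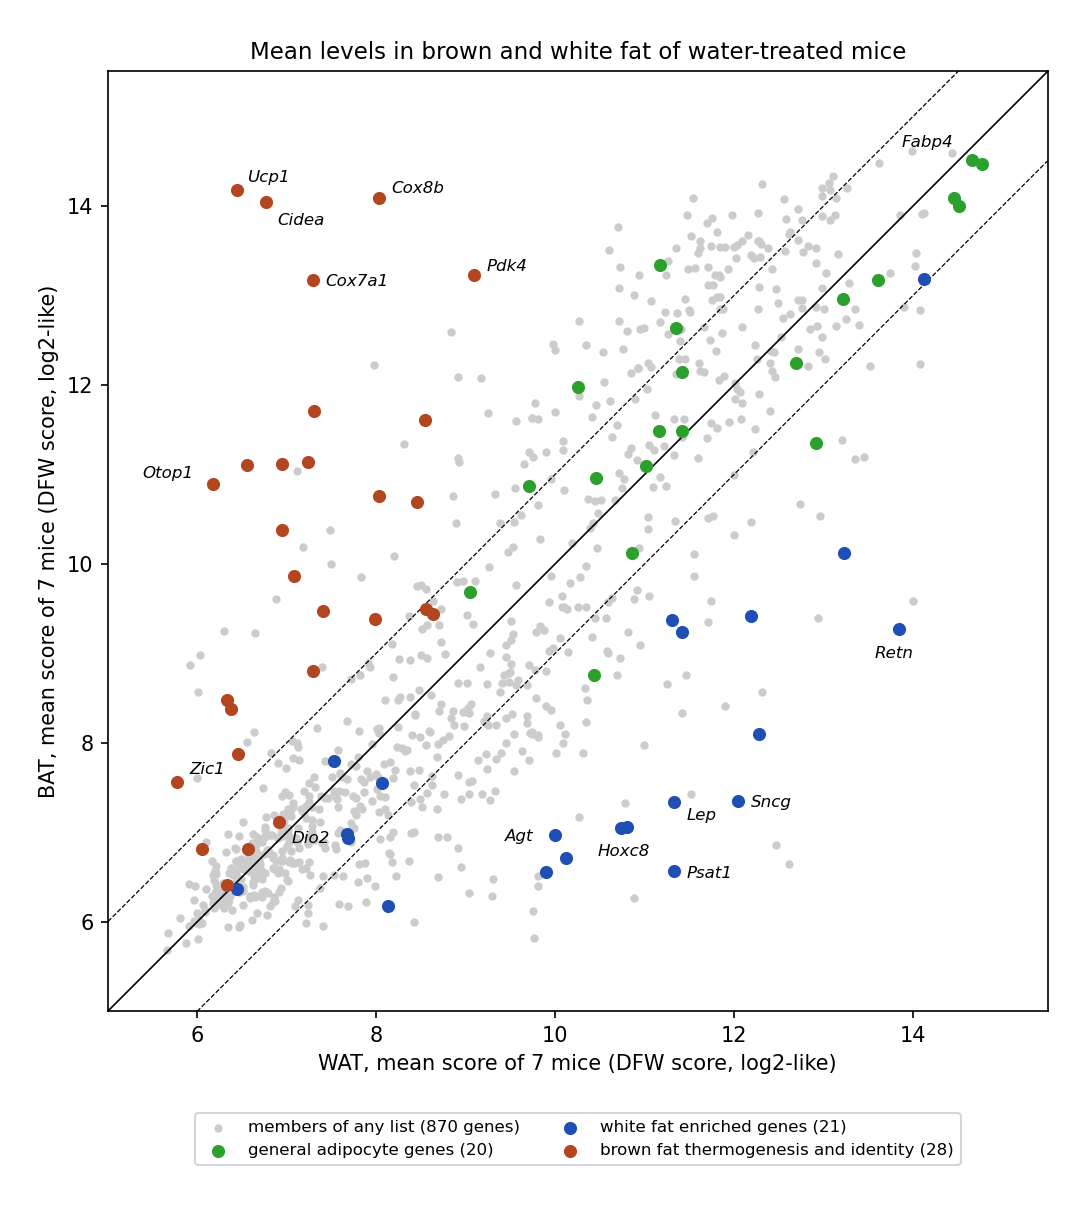
Mean DFW score over 7 mice in WAT (horizontal axis) and BAT (vertical axis) for the 870 measured genes of all lists (grey), with general adipocyte genes in green, white fat enriched genes in blue and brown fat genes in red. The solid line marks equal scores and the dashed lines a difference of 1 unit. Ucp1, Cidea and Cox8b stand far above the diagonal, Lep, Psat1 and Sncg far below it, and most general adipocyte genes, such as Fabp4, lie between the dashed lines.

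The white fat list ran the other way. Of 21 measured members, 15 were higher in WAT and none was higher in BAT, with a median of -3.02. This list was drawn up from genes known for white fat, so its direction too is only a check of the tissues. Phosphoserine aminotransferase (Psat1), a serine synthesis enzyme, was at 6.56 in every BAT array and 11.33 in every WAT array, a difference of -4.76, and its other probe set gave -4.15. Synuclein gamma (Sncg) differed by -4.69, resistin (Retn), a hormone of mouse white fat, by -4.57, and the natriuretic peptide clearance receptor Npr3 by -4.19. Retn was itself read at 9.27 to 9.28 in BAT against 13.84 in WAT. The neutral amino acid transporter Slc7a10 differed by -3.67, the imprinted genes Mest and Nnat by -3.40 and -3.35 and angiotensinogen (Agt) by -3.02. Cav1, Hoxc9, Sfrp5, Igfbp3, Hoxc10 and Fst, with differences from -0.93 to 0.26, were not called.

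Genes that every fat cell uses were called in both directions. Of 20 measured members, 4 were higher in BAT, 2 were higher in WAT and 14 were not called, with a median of -0.05. Over all genes 2.56% were higher in BAT and 7.05% higher in WAT, so this list was not called less often than other genes. Fabp4 was at 14.51 in each BAT array and 14.66 in each WAT array, a difference of -0.15. The adipocyte receptor Pparg differed by 0.08, adiponectin (Adipoq) by -0.50, lipoprotein lipase (Lpl) by -0.36 and hormone-sensitive lipase (Lipe) by 0.06. The members higher in BAT were the glycerol phosphate dehydrogenase Gpd1 (2.17), the transcription factor Cebpb (1.72), the triglyceride lipase Pnpla2 (1.28) and the insulin-responsive glucose transporter Slc2a4 (1.16). The members higher in WAT were the activin receptor Acvr1c (-1.67) and the droplet protein Cidec (-1.56).

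The respiratory chain was higher in BAT across its complexes, to unequal degrees. In complex I, which takes electrons from NADH, 22 of 29 measured subunits were higher in BAT and none was higher in WAT, with a median of 1.27. Ndufs7 differed by 1.86 and Ndufv2 by 1.80. In complexes II and III with cytochrome c, 12 of 14 were higher in BAT, with a median of 1.67. Uqcrc1 differed by 2.31, Uqcrfs1 by 1.91 and Sdhb by 1.92. The largest value in this group, 4.26 for the succinate dehydrogenase subunit Sdhd, came with 1 array of each tissue far from the others. Mouse 2 was at 7.57 in BAT and 6.57 in WAT, the other 6 mice were at 12.76 to 13.67 and 8.12 to 8.54, and without mouse 2 the difference was 4.80.

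Complex IV and the ATP synthase differed less. In complex IV, cytochrome c oxidase, 6 of 14 subunits were higher in BAT, and the median was 0.86. Among ATP synthase subunits and nucleotide carriers, 7 of 19 were higher in BAT and 2 were higher in WAT, with a median of 0.77. Atp5o, Atp5d and Atp5e differed by 1.40, 1.39 and 1.34, while the adenine nucleotide carriers Slc25a4 and Slc25a5, which exchange ATP for ADP, differed by 0.21 and 0.23. The 2 members called higher in WAT rest on single probe sets. Atp5g1, a gene for the membrane ring of the enzyme, differed by -2.13 on the brightest probe set and by -0.15 on the other. Atpif1, an inhibitor of the enzyme, differed by -1.85 on the brightest of 3 probe sets, and the other values reached 0.04. Atp5md, a small ATP synthase subunit outside the list and among the 20 largest differences, was at 12.60 in BAT and 8.88 in WAT, a difference of 3.71. Joint quantile normalization left 18 calls in complex I, 14 in complexes II and III, 7 in complex IV and 5 higher in BAT in the ATP synthase list.

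**Figure D3:**
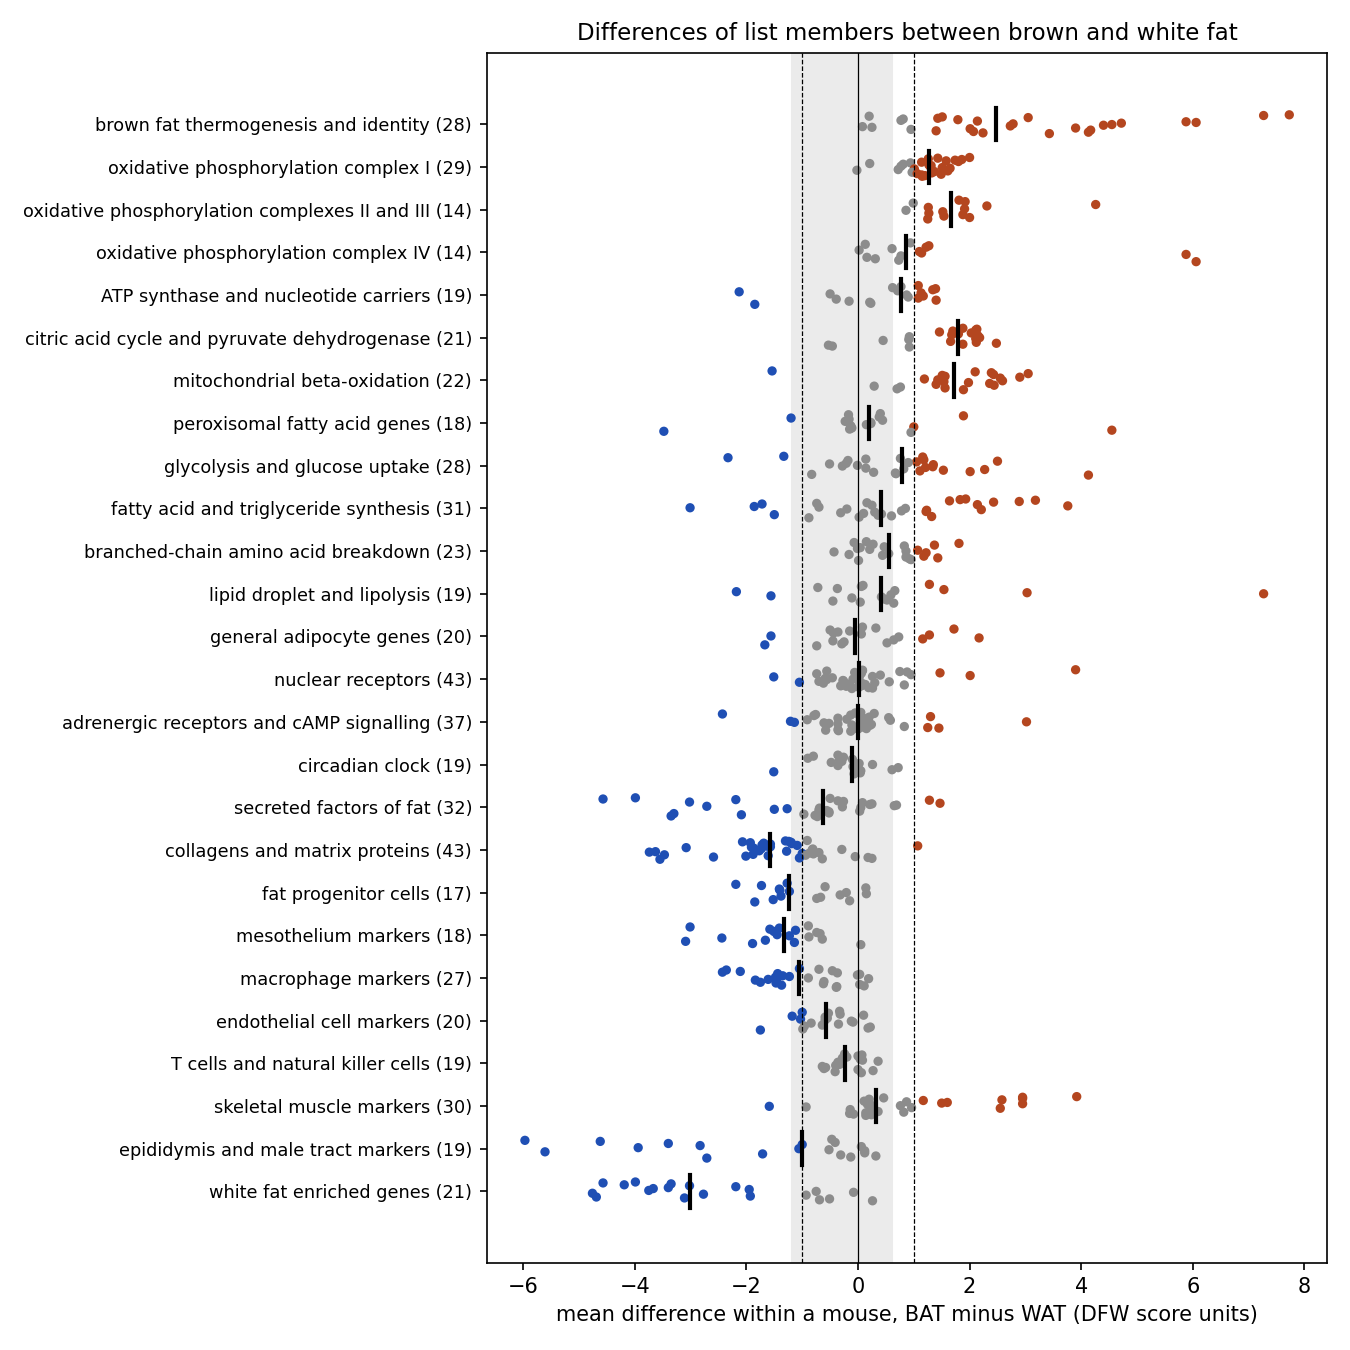
Mean within-mouse difference, BAT minus WAT, in DFW score units (horizontal axis) for each measured member of 26 gene lists (1 point per gene, number of members in brackets), with a black bar at the list median. Points are red at or above 1 unit, blue at or below -1 unit and grey otherwise, dashed lines mark those limits, and the shaded band runs from the 5th to the 95th percentile of all genes (-1.18 to 0.61). The lists of mitochondrial oxidation lie to the right, and matrix, progenitor, mesothelium, macrophage and white fat lists lie to the left.

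Within several protein families 1 partner differed strongly and the other little. Cox7a1 and Cox8b, the forms of these cytochrome oxidase subunits known from heart and muscle, differed by 5.88 and 6.06. Their widely expressed partners Cox7a2 and Cox8a differed by 0.77 and 0.73. The same did not hold for all such pairs, since the muscle form Cox6a2 differed by 0.02 against 0.61 for Cox6a1, and Cox4i2 by 0.13 against 0.94 for Cox4i1. The mitochondrial creatine kinases Ckmt2 and Ckmt1 differed by 0.27 and -0.13. Among lipid proteins, Fabp3 differed by 3.43 and Fabp4 by -0.15, and Cidea by 7.27 and Cidec by -1.56. Fabp3 was at 10.36 to 10.37 in BAT and 6.88 to 7.25 in WAT, and its second probe set gave 0.37. No test was made between partners, and scores of different probe sets cannot be compared as levels.

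**Figure D4:**
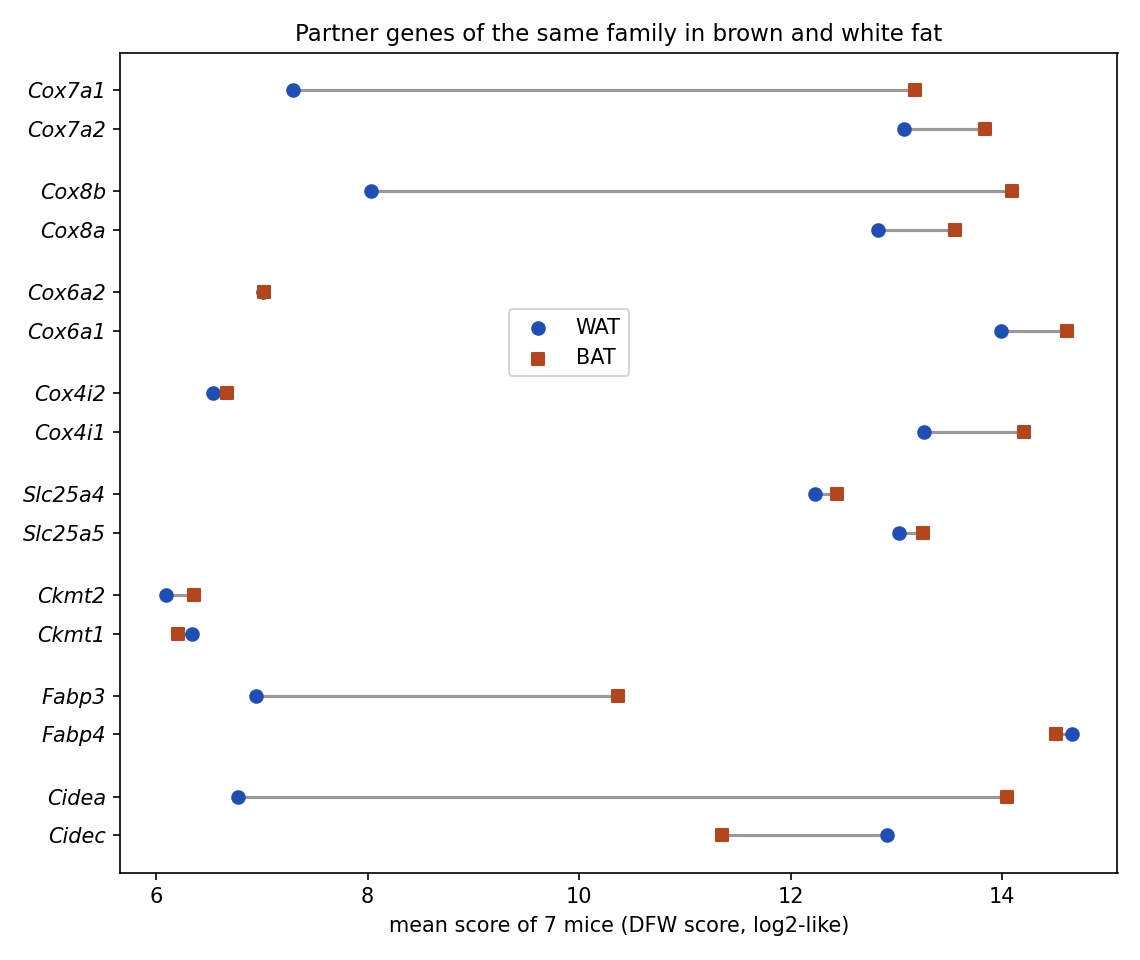
Mean DFW score over 7 mice (horizontal axis) in WAT (circles) and BAT (squares) for 8 pairs of genes of the same family, joined by a line for each gene. Only the gap within a gene is comparable between genes. The gap is widest for Cidea, Cox8b, Cox7a1 and Fabp3, while Cox6a2, Cox4i2, Slc25a4, Slc25a5, Ckmt1, Ckmt2 and Fabp4 are within 0.27 units between the tissues.

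The enzymes that feed the chain were higher in BAT as well. In the citric acid cycle and pyruvate dehydrogenase, 15 of 21 were higher in BAT and none was higher in WAT, with a median of 1.80. The pyruvate dehydrogenase subunits Dlat and Pdhb differed by 2.48 and 2.12, citrate synthase (Cs) by 1.88 and the isocitrate dehydrogenase subunit Idh3a by 2.13. Members that were not called included the malate dehydrogenases Mdh2 (0.91) and Mdh1 (0.45) and pyruvate carboxylase Pcx (-0.46). Pdk4, the kinase that shuts off pyruvate dehydrogenase, was at 13.22 in each BAT array and 9.09 in each WAT array, a difference of 4.13. Mitochondrial glycerol phosphate dehydrogenase (Gpd2), which passes electrons from cytosolic NADH to the chain, differed by 3.83. Its partner Gpd1 differed by 2.17.

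Mitochondrial beta-oxidation was higher in BAT in 18 of 22 measured genes, with a median of 1.72. Acadvl, which starts the breakdown of long-chain acyl-CoA, differed by 3.05, with BAT at 13.76 and WAT at 10.70. The trifunctional protein subunits Hadha and Hadhb differed by 2.90 and 2.55, the thiolase Acaa2 by 2.59 and the carnitine carrier Slc25a20 by 2.39. Etfdh and Acadm, whose upstream sequences are printed above, differed by 2.36 and 1.51. The single measured member higher in WAT was Cpt1a, the liver form of the carnitine palmitoyltransferase at the entry of the pathway. It differed by -1.54 on its brightest probe set and by -1.23 to -1.68 over 3. Cpt1b, another form of this enzyme, had no probe set with a single symbol here and is not described. Among peroxisomal fatty acid genes 2 of 18 were higher in BAT, Slc27a2 (4.55) and Ehhadh (1.89), and 2 were higher in WAT, the very-long-chain transporter Abcd2 (-3.48) and Acaa1b (-1.20), and the list had a median of 0.19. This even split depended on the scaling, with 4 higher in BAT and 1 in WAT after joint quantile normalization and 4 and 2 after centring.

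Genes that build and shape mitochondria had fewer calls. Of 24, 6 were higher in BAT and none was higher in WAT, with a median of 0.73. The 6 were Chchd10 (2.90), the inner membrane organizers Immt (1.70) and Chchd3 (1.61), the chaperones Hspe1 (1.65) and Hspa9 (1.29), and Letm1 (1.29). The mitochondrial DNA factor Tfam differed by 0.41, the polymerase Polg by 0.13 and the transcription factor Nrf1 by -0.70, and none of these was called. After joint quantile normalization 10 members were called. Coq8a, a factor of coenzyme Q synthesis outside the list, differed by 3.79.

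Fatty acid synthesis was also higher in BAT at several steps. Of 31 genes for fatty acid and triacylglycerol synthesis, 12 were higher in BAT and 4 were higher in WAT, with a median of 0.42. Elovl6, which lengthens palmitate, was at 12.59 in every BAT array and 8.78 to 8.88 in WAT, a difference of 3.76. The acetyl-CoA carboxylases Acacb and Acaca differed by 3.18 and 1.83, the acetyl-CoA synthetases Acss1 and Acss2 by 2.89 and 2.43, fatty acid synthase (Fasn) by 1.93 and the carbohydrate-responsive factor Mlxipl by 2.21. The other probe set of Acacb gave 0.09. The genes higher in WAT were the fatty acid desaturase genes Fads3 (-3.01) and Fads1 (-1.86), Elovl1 (-1.72) and Mogat1 (-1.50). The stearoyl-CoA desaturase Scd1 differed by 0.16 and the acyltransferases Dgat1 and Dgat2 by 0.10 and 0.42, none of them called.

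Genes of lipid and glucose handling were divided between the tissues. Among 19 droplet and lipolysis genes, Cidea (7.27), Plin5 (3.03), Plin2 (1.54) and Pnpla2 (1.28) were higher in BAT, and Plin4 (-2.18) and Cidec (-1.56) were higher in WAT. Among 16 genes of fatty acid uptake, Slc27a2, Fabp3, Acsl5 (1.89) and Vldlr (1.22) were higher in BAT and Lrp1 (-1.38) was higher in WAT, while Cd36 differed by -0.44. In glycolysis and glucose uptake 12 of 28 genes were higher in BAT and 2 were higher in WAT, with a median of 0.79. The phosphofructokinase subunit Pfkl differed by 2.50, pyruvate kinase (Pkm) by 2.27, the lactate and pyruvate carrier Slc16a1 by 2.01 and lactate dehydrogenase (Ldha) by 1.53. The glucose transporters were divided, with Slc2a4 at 1.16, Slc2a1 at -1.33 and Slc2a3 at -2.33, although other probe sets of Slc2a3 reached -0.02.

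Branched-chain amino acid breakdown was higher in BAT in 6 of 23 genes and in no case higher in WAT, with a median of 0.55. The dehydrogenase subunits Bckdha and Dbt differed by 1.81 and 1.37 and the propionyl-CoA carboxylase subunit Pccb by 1.43. The first enzyme of the pathway, Bcat2, differed by -0.07, and the mitochondrial carrier Slc25a44 by 0.95, neither being called. Among 13 genes of creatine and calcium cycling, none was higher in BAT and 3 were higher in WAT. They were creatine kinase B (Ckb, -1.45) and the creatine synthesis enzymes Gamt (-1.40) and Gatm (-1.17). The calcium pump Atp2a2 differed by -0.23. After joint quantile normalization or centring 1 member was called higher in BAT. Gatm fell short of 1 unit after joint quantile normalization, at -0.97.

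Genes of noradrenaline and cAMP signalling were called in both directions. Of 37 measured, 4 were higher in BAT and 3 were higher in WAT, with a median of 0.00. Those higher in BAT were the phosphodiesterase Pde4d (3.02), the G protein regulators Rgs7 (1.45) and Rgs2 (1.25) and the cyclase Adcy9 (1.30). Those higher in WAT were the inhibitory G protein subunit Gnai1 (-2.43), Pde4b (-1.21) and Pde1a (-1.14). Gnai1 was at 10.53 in every BAT array and 12.96 in every WAT array, and its 3 probe sets gave -1.98 to -2.43. The 2 probe sets of Pde4d gave 3.02 and 0.00. The beta-adrenergic receptors had no probe set with a single symbol here and are not described.

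Among nuclear receptors, 3 of 43 were higher in BAT, Ppara (3.90), Esrrg (2.01) and Rarb (1.47), and 2 were higher in WAT, Rora (-1.51) and the glucocorticoid receptor Nr3c1 (-1.05). The counts depended on the scaling, with 7 higher in BAT and 1 in WAT after joint quantile normalization, where Nr3c1 was at -0.80, and 5 and 1 after centring. The list of 23 genes of the glucocorticoid and fasting response includes the receptor Nr3c1 itself. Of the 23, 9 were higher in WAT, 2 were higher in BAT and 12 were not called. Lcn2 differed by -3.3, Fkbp5 by -2.10, Cebpd by -1.76, Tsc22d3 by -1.59 and Zbtb16 by -1.46. Pdk4 (4.13) and the metallothionein Mt1 (1.37) were higher in BAT. After joint quantile normalization 5 of these genes were called higher in WAT and 3 higher in BAT, and after centring 6 and 4. Of 19 circadian clock genes only Rora passed, and the clock genes Per2, Arntl and Nr1d1 differed by -0.10, -0.36 and 0.02.

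Secreted factors of fat were called in both directions. Of 32, 10 were higher in WAT, 2 were higher in BAT and 20 were not called, with a median of -0.63. Beside Retn, Lep and Agt, insulin-like growth factor 1 (Igf1) differed by -2.71 and chemerin (Rarres2) by -2.19. The 10 also count Nnat, which stands in the list although it is a membrane protein. Retn, Lep, Agt, Rarres2 and Nnat are members of the white fat list as well and are counted in both. Igf1 was at 8.75 to 8.77 in BAT and 11.46 to 11.47 in WAT. The factors higher in BAT were neuregulin 4 (Nrg4), known as a secreted product of brown fat, with 1.47, and Nampt with 1.28. The angiogenic factor Vegfa differed by 0.69 and was not called.

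Of 70 developmental patterning factors, 1 was higher in BAT, 5 were higher in WAT and 64 were not called. Over all genes 2.56% were higher in BAT and 7.05% higher in WAT, so these counts are near those of any genes. Zic1 was higher in BAT, and Hoxc8 (-3.75), Tcf21 (-1.95), Osr1 (-1.68), Wt1 (-1.45) and Gata6 (-1.13) were higher in WAT. Hoxc8, a gene that marks the position along the body axis, was at 7.06 in every BAT array and 10.80 in every WAT array. No other Hox gene was called, and those measured ran from -0.93 for Hoxb5 to 0.53 for Hoxa10. Gata6 fell to -0.89 after joint quantile normalization.

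Genes of connective tissue were higher in WAT. Of 43 collagens and matrix proteins, 30 were higher in WAT and 1, Col12a1 (1.07), was higher in BAT, with a median of -1.57. Osteoglycin (Ogn) was at 8.57 in BAT and 12.31 in WAT in every mouse, a difference of -3.74, with -3.72 on its second probe set. Fibromodulin (Fmod) differed by -3.63, nidogen (Nid1) by -3.55, Efemp1 by -3.47 and fibronectin (Fn1) by -3.08. The other 3 probe sets of Col12a1 did not share its sign. Among 17 genes of fat progenitors, 9 were higher in WAT, with a median of -1.23, and these included Dpp4 (-2.19), Cd34 (-1.73), Pdgfra (-1.27) and Zfp423 (-1.41). Smooth muscle markers were higher in WAT in 5 of 14, among them Acta2 (-2.16) and Myh11 (-1.42).

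Markers of mesothelium, the lining of the body cavities, were higher in WAT in 12 of 18 genes, with a median of -1.32. Upk3b was at 6.28 in every BAT array and 9.27 to 9.32 in WAT, a difference of -3.01, and Aldh1a1, Gpm6a and Wt1 differed by -3.09, -2.44 and -1.45. Macrophage markers were higher in WAT in 14 of 27 genes and higher in BAT in none, with a median of -1.05. The haemoglobin scavenger receptor Cd163 differed by -2.43, the growth factor receptor Csf1r by -2.36 and the mannose receptor Mrc1 by -2.11. The pan-macrophage gene Adgre1 differed by -1.05, and Cd68 and Itgax by -0.70 and 0.03. The mean score over the macrophage list was 7.56 to 7.59 in the BAT arrays and 8.57 in the WAT arrays. No part of these differences was assigned to cell number.

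Other immune and vascular markers were called to unequal degrees. Over all genes 2.56% were higher in BAT and 7.05% higher in WAT. After joint quantile normalization these shares were 3.65% and 4.31%. Of 19 genes of T cells and natural killer cells none was called, and their differences lay between -0.64 and 0.36. By limma alone 19 of the 19 passed an unadjusted p under 0.05, but 99.7% of all probe sets passed even the adjusted limit. Rank products called 1 of the 19, against 9809 of all 45037 probe sets. Of 14 B cell genes only the immunoglobulin heavy chain Ighm was called, at -4.08 on its brightest probe set, while Cd79a and Ms4a1 differed by -0.01 and -0.16 and the 11 probe sets named Ighm ranged from -4.08 to 0.44. Of 13 antigen presentation genes 3 were called, all higher in WAT. They were the class II genes H2-Aa, H2-Eb1 and H2-Ab1, which differed by -1.56, -1.12 and -1.04. After quantile normalization H2-Eb1 and H2-Ab1 were at -0.81 and -0.74. Of 20 endothelial markers 4 were called higher in WAT, Lyve1 (-1.75), Vwf (-1.18), Cldn5 (-1.03) and Cdh5, which only just reached 1 unit, and of these only Lyve1 stayed past 1 unit after quantile normalization. The endothelial genes Pecam1 and Kdr differed by -0.33 and -0.53. Interferon response genes were higher in WAT in 3 of 21, led by Ifi27l2a (-2.26), in 1 after quantile normalization and in 2 after centring. Of 17 mast cell and neutrophil genes only S100a8 (-1.35) was called.

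In nerve and Schwann cell markers 1 of 13 was higher in BAT, S100b (2.72), and 1 was higher in WAT, Pmp22 (-1.41), while the Schwann cell gene Sox10 differed by 0.23 and tyrosine hydroxylase (Th), the enzyme of noradrenaline synthesis, by -0.53. S100b was at 9.60 in every BAT array and 6.58 to 8.13 in WAT. Outside this list, the neurotrophin receptor Ntrk3 was at 10.71 in BAT and 6.49 in WAT, a difference of 4.22, and its 8 probe sets ranged from 0.12 to 4.22. Of 11 hepatocyte markers only Cyp2e1, which fat also expresses, was called, at -4.42, and albumin (Alb) differed by -0.44. No red cell or platelet gene of 8 was called. By limma alone 8 of the 8 passed an unadjusted p under 0.05, as did nearly all probe sets (99.7% at the adjusted limit). Rank products called 5 of the 8, against 9809 of all 45037 probe sets. After joint quantile normalization or centring 1 of the 8 was called higher in BAT.

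Reference genes were not level between the tissues. Of 13 genes often used as references, Sdha (1.81) and Pgk1 (1.34) were higher in BAT, and Gusb (-1.65), Hprt (-1.19) and B2m (-1.02) were higher in WAT. Tbp, Ywhaz and Actb differed by -0.29, -0.37 and -0.56. Hprt was at -0.94 after quantile normalization and B2m at -0.89 after centring. Of 30 cytosolic ribosomal proteins, Rps27 (-1.72) and Rpl27 (-1.24) were higher in WAT and 28 were not called, with a median of -0.28. The 3 probe sets of Rpl27 ranged from -1.24 to 0.65, and ribosomal genes share sequence with many pseudogenes, so these single calls are uncertain.

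Genes known from skeletal muscle were high in some BAT arrays. Of 30 skeletal muscle markers, 8 were higher in BAT and 1 was higher in WAT, the tropomyosin Tpm2 (-1.59), and its relative Tpm1 differed by -0.93. The mean score over the list was 9.14 in mouse 1, 8.58 in mouse 3 and 7.85 in mouse 7, against 6.90 to 7.10 in the other 4 BAT arrays and 6.81 in the WAT arrays. The actin of muscle, Acta1, was at 7.47 to 16.44 in BAT, with a median of 8.90, and 7.09 to 7.14 in WAT, a difference of 3.92 (SE 1.29, adjusted p = 0.0207 by limma). Without mice 1, 3 and 7 the difference was 1.25, and 4 muscle genes were called higher in BAT. The muscle myosins Myh1 and Myh4 and the troponin Tnnc2 went from 2.95 each to 1.10, 1.15 and 0.94. The brown fat, respiratory, citric acid cycle and beta-oxidation lists kept their counts of calls without these 3 mice. Most scores hardly varied between mice, so these counts had little room to move. Whether muscle contributed to these lists was not tested.

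Male tract genes were present in WAT. Of 19 measured markers of epididymis, 7 were higher in WAT, and the mean score over the list was 10.92 in mouse 1 and 9.90 in mouse 2, against 7.14 to 7.50 in the other 5 WAT arrays and 6.39 in all BAT arrays. Lcn8 was at 9.32 to 19.85 in WAT, with a median of 10.23, and 6.64 in BAT, a difference of -5.97 (SE 1.63, adjusted p = 0.00905 by limma), and Gpx5 was at 9.98 to 18.38 against 6.86, a difference of -5.61. Without mice 1 and 2 the list still had 7 calls, and its median moved from -1.0 to -0.31, while without mice 1, 3 and 7 it had 2 calls. Without mice 1 and 2 the differences of Lcn8 and Gpx5 were -3.36 and -3.57, so both genes remained higher in WAT in the other 5 mice. The list counts for mesothelium (12), macrophages (14) and matrix proteins (30) were the same without mice 1 and 2. With so little spread between mice in most scores, these counts could hardly change. Whether carried-over tissue contributed to these or to other genes of these arrays was not tested.

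**Figure D5:**
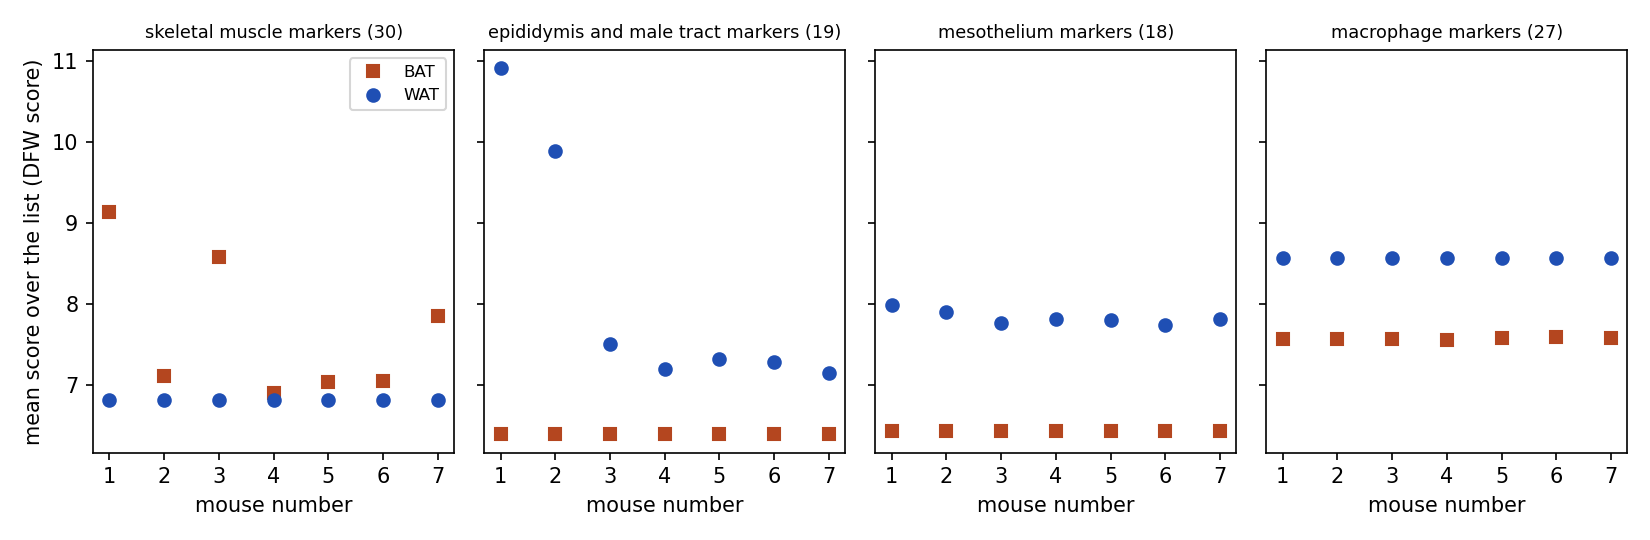
Mean DFW score over the measured members of 4 marker lists (vertical axis, number of members in brackets) in each of the 7 mice (horizontal axis), with squares for BAT and circles for WAT. Muscle markers are high in BAT of mice 1, 3 and 7, male tract markers are high in WAT of mice 1 and 2, and mesothelium and macrophage markers are higher in WAT in all mice.

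Several of the largest remaining differences belonged to no list. Higher in WAT were Plagl1, an imprinted zinc finger factor (-4.60), Gpt2, the mitochondrial alanine aminotransferase (-4.43), the Wnt inhibitor Apcdd1 (-4.17), the sulfotransferase Chst1 (-4.03) and the cell cycle protein Ccnd2 (-4.01). Gpt2 was at 6.71 in every BAT array and 11.14 in every WAT array, and its 4 probe sets gave -1.26 to -4.43. Serpina1b, with -3.87, has near-identical relatives, and its probe sets may read several of them. Higher in BAT was Acsm3, a medium-chain acyl-CoA synthetase (3.40), at 10.39 in BAT and 6.99 in WAT.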

How the data were processed

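The arrays at hand are 12 each from liver, white fat and brown fat, of mice given water or a casein-like amino acid mixture (CAAM), for which the authors hybridized amplified RNA to Affymetrix GeneChip arrays. Of these, the 7 BAT and 7 WAT arrays of water-treated mice were used here. Liver and CAAM arrays were left out, and the mice given the other amino acid mixture of the study (VAAM) were not analysed here. The deposited values are DFW scores on a log2-like scale, computed in R (version 2.7.2 in the submitters' processing notes) from the scanner intensities. Whether tissues were summarized together is not given in the sources used here. Arrays have no read depth, so their number limits the precision. The groups were taken from the sample titles, and equal numbers in the titles were taken as the same mouse.

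Scores were used as deposited. The difference was fitted with limma (version 3.58.1) in R 4.3.3 with the mouse as a block, and p-values were adjusted by Benjamini-Hochberg over 45037 probe sets. Calls needed an adjusted p under 0.05 and a difference of at least 1 unit. The paired fit was tested on simulated data, with independent noise at each probe set's own spread. By adjusted p alone, without the size limit, it recovered 94 of 100 features shifted by 4 SD and all of 100 shifted by 6 SD. It called 14 of 44837 unshifted ones. These shares do not describe the call rule, which also needs a difference of at least 1 unit. The same-number arrays of the tissues had residual correlations of -0.02 to 0.16, and 5 of 7 BAT arrays matched best to WAT of their own number. Symbols came from the platform annotation, with 34945 probe sets naming 1 gene, 932 several and 9160 none, and only the first kind was used for genes. A gene was represented by its brightest probe set over the 14 arrays. The 43 gene lists ask for 965 symbols, of which 870 were measured. The comparison, its lists and its rules were chosen with earlier results of these data known. The rule for named genes took Ucp1 and Lep, the 20 largest differences in each direction and all members of the Ucp and partner lists. It also took up to 5 called genes per direction of each list. Not all of these 201 genes are mentioned in the text. Other list members were named after their values were seen. Alternatives were no block, joint quantile normalization, array centring, leaving out dim probe sets, a trended robust prior, array weights, other size limits, an exact sign permutation test, rank products (the study's test, with 20 permutations), other choices of probe set and leaving out mice. Promoters came from RefSeq, build GRCm38.p6.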

Additional observations from a re-analysis of the deposited data

Results flagged for a closer look

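Among the named genes, 18 combinations of gene and tissue had a range above 0.5 score units over the 7 mice, and in 4 of them 1 array lay far from the other 6, by a gap that exceeded the 95% critical value of Dixon's test as a share of the whole range. Chance gives such a gap in about 1 of 20 groups of normally distributed values that were not picked by their range. These 18 were picked by it, so that rate does not describe them. Sdhd had a gap share of 0.85 in BAT and 0.788 in WAT, and in both tissues the low array was that of mouse 2, at 7.57 and 6.57. S100b had a gap share of 0.858 in WAT, where mouse 5 was at 8.13 and the others were at 6.58 to 6.80. H2-Eb1 had a gap share of 0.746 in WAT, where mouse 6 was at 8.17 and the others were at 8.56 to 8.69. The cause was not tested.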

How the results depend on the processing

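The number of calls followed the size limit and the scaling. With a limit of 0.5 units 9954 probe sets were called (2308 higher in BAT and 7646 in WAT), with 2 units 442 (153 and 289), and with no size limit 44910 (16423 and 28487). Members called over all lists then numbered 493, 106 and 847. Rank products called 9809 (4900 and 4909). Joint quantile normalization called 1199 higher in BAT and 1343 higher in WAT, of which 2109 were also called as deposited. Leaving out each mouse in turn gave 2992 to 3004 calls, a count that the small spread between mice left little room to change. The fit without the replicate block, which does not use the pairing, called 3006 probe sets, and the block moved no other count of calls by over 1.5 times. Without mice 1 and 2 there were 2989 calls, and without mice 1, 3 and 7 there were 2985, both chosen after seeing the data. None of the 201 named genes changed direction under any alternative run for single genes. Of these, 14 fell below the limit after quantile normalization, 9 after centring and 32 when all probe sets of a gene were averaged. Spread between mice is close to 0 in these scores, so small differences between tissues cannot be weighed against it.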

Other observations

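Tmem45b, a membrane protein gene that differed little between the tissues, followed the mouse in both. Mice 4 and 5 were at 7.59 and 7.14 in BAT and 7.38 and 7.43 in WAT, while the other 5 mice were at 11.62 to 11.95 in BAT and 11.30 to 11.93 in WAT. Gdpd3 also followed the mouse, with mice 2, 4 and 5 at 6.73 to 6.76 in BAT and 7.16 to 7.23 in WAT and the others at 7.26 to 7.28 and 8.03 to 8.15. These genes were picked for this pattern after their values were seen, and no test is given.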
